A study of Mus musculus with 12 samples.

Results

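Hand2 and Gli3 encode the transcription factors that set up the antero-posterior polarity of the limb bud, and the data described here are the β-catenin and H3K27ac ChIP-seq peaks of their genomic landscapes. A landscape was defined as the gene body and 300 kb to either side on the mouse build mm10 (GRCm38), and a peak belonged to it when its summit, the position of highest enrichment, lay in this window. Of the 268431 summits in the 12 deposited lists, 301 were chosen in this way, 176 around Hand2 and 125 around Gli3. The lists come from forelimb buds of wild-type Swiss Albino mouse embryos, in which DMSO (the vehicle) or C59 was given at E10.5 and tissue was dissected 6 h later. C59 (Wnt-C59) is a small molecule that blocks the acyltransferase porcupine, without which WNT proteins are not lipidated and stay in the producing cell. Each antibody and treatment has 2 replicates, each prepared from pooled forelimb buds, and a consensus list of the peaks found in both, so that mesenchyme and ectoderm, and anterior and posterior cells, were read together.

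HAND2 is a basic helix-loop-helix factor of the posterior limb bud mesenchyme, where it is required to start expression of Shh. GLI3 is a zinc finger factor of the hedgehog pathway, which is processed to a repressor in the anterior mesenchyme where SHH is absent, and the HAND2 and GLI3 proteins restrict each other's domains before SHH signaling begins. β-Catenin is the nuclear effector of canonical WNT signaling and is brought to chromatin by TCF/LEF factors, whereas acetylation of histone H3 at lysine 27 (H3K27ac) marks active promoters and enhancers.

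Hand2 (ENSMUSG00000038193) lies on the plus strand of chromosome 8 from 57320983 to 57324633 and has 1 annotated transcription start site (TSS) in GENCODE M21. Gli3 (ENSMUSG00000021318) lies on the plus strand of chromosome 13 from 15463235 to 15730026 and has 4. The Hand2 window thus spanned 604 kb and the Gli3 window 867 kb, most of the difference being the Gli3 gene itself (267 kb). Positions are given as the distance from the first base of each gene.

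The sequences below come from windows around β-catenin summits of DMSO controls. A TCF/LEF core, ATCAAAG or TTCAAAG on either strand, was found in the 200 bp around 8 of the 24 β-catenin summits of DMSO controls, 6 at Hand2 and 2 at Gli3. Each is printed on the plus strand of GRCm38 with 15 bases to either side, and the capitals mark the core.
Hand2, 226.1 kb upstream, chr8:57094875-57094911: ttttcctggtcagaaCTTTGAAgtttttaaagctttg
Hand2, 225.7 kb upstream, chr8:57095222-57095258: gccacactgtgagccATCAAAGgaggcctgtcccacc
Hand2, 186.8 kb upstream, left core, chr8:57134115-57134151: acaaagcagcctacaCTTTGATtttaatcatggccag
Hand2, 186.8 kb upstream, right core, chr8:57134199-57134235: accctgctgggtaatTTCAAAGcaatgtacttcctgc
Hand2, 66.2 kb upstream, left core, chr8:57254697-57254733: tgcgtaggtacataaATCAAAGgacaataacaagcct
Hand2, 66.2 kb upstream, right core, chr8:57254793-57254829: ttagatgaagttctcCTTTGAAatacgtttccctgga
Hand2, 28.4 kb downstream, chr8:57349335-57349371: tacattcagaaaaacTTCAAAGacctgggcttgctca
Hand2, 56.2 kb downstream, chr8:57377232-57377268: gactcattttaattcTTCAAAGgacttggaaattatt
Gli3, 121.8 kb upstream, chr13:15341413-15341449: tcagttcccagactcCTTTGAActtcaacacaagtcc
Gli3, 404.2 kb downstream, chr13:15867426-15867462: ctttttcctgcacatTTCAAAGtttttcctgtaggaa

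The 3 windows of 200 bp printed next hold no TCF/LEF core as defined above, neither ATCAAAG nor TTCAAAG. The first is the only summit of both landscapes that was still in the consensus list after C59, and its capitals mark a match to the GLI core CCACCCA, here on the minus strand. The second was still in the list of C59 replicate 2. The last is the strongest summit of the Gli3 landscape, and its capitals mark the HAND2 E-box CATCTG.
Hand2, 84.5 kb downstream, chr8:57405389-57405588: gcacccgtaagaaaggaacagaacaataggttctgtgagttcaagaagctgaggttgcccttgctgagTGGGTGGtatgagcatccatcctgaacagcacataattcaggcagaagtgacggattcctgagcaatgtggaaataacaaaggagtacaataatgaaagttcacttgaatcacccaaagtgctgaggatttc
Hand2, 116.2 kb upstream, chr8:57204671-57204870: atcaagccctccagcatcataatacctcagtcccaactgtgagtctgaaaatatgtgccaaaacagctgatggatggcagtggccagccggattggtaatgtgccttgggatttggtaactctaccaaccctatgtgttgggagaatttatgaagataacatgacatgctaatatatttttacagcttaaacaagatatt
Gli3, 119.5 kb upstream, chr13:15343626-15343825: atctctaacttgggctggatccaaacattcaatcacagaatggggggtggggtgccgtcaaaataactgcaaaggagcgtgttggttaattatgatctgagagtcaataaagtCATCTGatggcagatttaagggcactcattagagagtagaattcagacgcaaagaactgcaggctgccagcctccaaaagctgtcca

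Depth and the calling limit bear on every comparison with C59. Each summit carries the fold enrichment of its coverage by sequenced fragments over the coverage that the peak caller macs2 expected there. The lowest expected coverage of a list, which is the genome-wide background and measures depth, was 1.57 and 1.81 fragments in the β-catenin libraries of DMSO controls, and 1.83 and 1.82 after C59. The C59 libraries were therefore no shallower, but their lists were stricter. The lowest −log10 p was 3.89 and 3.79 in DMSO controls against 5.69 and 5.72 after C59. At background, 11 fragments and a fold enrichment of 4.24 (replicate 1) or 4.26 (replicate 2) were needed to enter a C59 list. A summit that is not listed may still hold signal below that limit. In the H3K27ac libraries the lowest −log10 p ranged only from 3.53 to 3.59 and the background coverage from 2.69 to 3.17. Of the markers examined in the H3K27ac lists, the 5 limb bud genes Prrx1, Twist1, Msx1, Lmx1b and Tbx5 had a summit less than 1 kb from a TSS in each list. The ectodermal genes Fgf8, Trp63 and Krt8 had none in any list, so the ectoderm of these buds is not visible at its defining promoters. Of the 2 hindlimb genes, Tbx4 had such a summit in each list and Pitx1 in none. Of 6 genes of other tissues, the endothelial gene Cdh5 had one in DMSO replicate 2 and in both C59 replicates, and the other 5 had none.

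In DMSO controls, β-catenin occupied both landscapes away from the Hand2 and Gli3 promoters, with 11 consensus summits around Hand2 and 13 around Gli3. The replicate lists held 13 and 22 summits around Hand2, and 15 and 16 around Gli3. Within 1 kb of the start sites of Hand2 and Gli3 there was no consensus summit. Most genes had none there either, since 9.06% of all protein-coding genes had one. The nearest to Hand2 was 7.32 kb downstream and the nearest to Gli3 16.9 kb upstream. Of the 24, 12 were intergenic, 10 lay in introns and 2 in exons of the non-coding genes Hand2os1 and 5033428I22Rik. Around Hand2, 8 of 11 were intergenic and none lay in the Hand2 body. Around Gli3, 5 of 13 lay in introns of Gli3 itself. This split by location was not set against that of all summits.

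After C59, 1 β-catenin summit was listed in the Hand2 landscape and 0 in the Gli3 landscape. The C59 replicate lists held 1 and 2 summits around Hand2 and 0 and 0 around Gli3, and the DMSO and C59 counts did not overlap in either landscape. Two-sided exact permutation tests of these counts gave p = 0.333 for each gene, which is the smallest p that 2 against 2 replicates allow. Of the 24 DMSO summits, 23 did not lie inside a C59 consensus peak, where 98.7% of the 16238 summits of the whole DMSO list did not either. The share that stayed listed was 4.17% (95% Wilson interval 0.739 to 20.2%, which covers counting error only) against 1.35% (1.18 to 1.54%) over all summits. With a peak in either C59 replicate it was 2 of 24, against 2.54% of all summits. Of the 24 summits, 20 had a −log10 p above the C59 limit in both DMSO replicates, and 1 of these 20 was listed after C59 (5.0%, against 1.47% of 14015 such summits in the whole list). In pooled tissue, occupancy in fewer cells and lower occupancy per cell cannot be told apart.

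**Figure D1:**
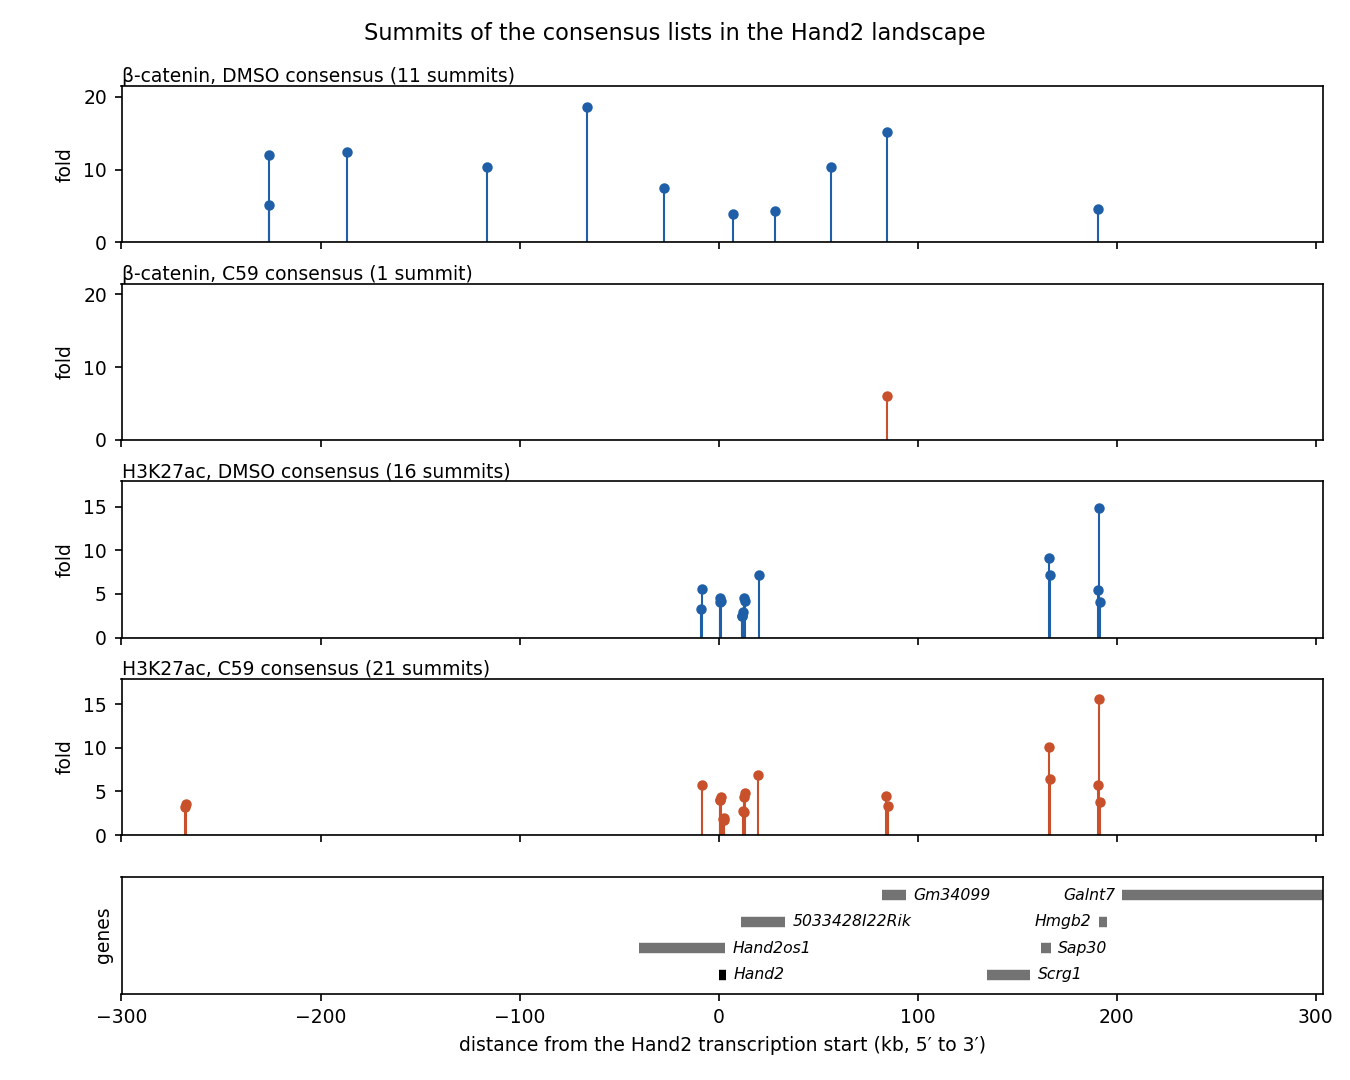
Fold enrichment of each consensus summit (y axes) against its distance from the Hand2 TSS in kb (x axis), for β-catenin and H3K27ac in DMSO controls (blue) and after C59 (red), with selected genes as bars at the bottom. The 11 β-catenin summits of DMSO controls spread from 226 kb upstream to 190 kb downstream and 1 was listed after C59, whereas H3K27ac lay around the gene and at Sap30 and Hmgb2 in both conditions.

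The strongest β-catenin summit around Hand2 was intergenic, 66.2 kb upstream (peak chr8:57254566-57255054), with a consensus fold enrichment of 18.6 that ranked 362 among the 16238 summits. Its fold enrichment was 17.1 and 17.95 in the DMSO replicates, from 58 and 76 fragments where 2.45 and 3.29 were expected. No C59 list held it, although its DMSO values were the highest of all 24 summits and lay far above the C59 calling limit. Its window carries both TCF/LEF cores printed above, with centres 85 bp and 11 bp from the summit.

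The next was the summit 84.5 kb downstream, in an intron of the lincRNA gene Gm34099 (peak chr8:57405220-57405723), with a consensus fold enrichment of 15.2. It was the only one of the 24 present in all 4 β-catenin replicate lists. Its fold enrichment was 14.3 and 12.7 in DMSO controls and 6.35 and 4.94 after C59, from 51 and 52 against 18 and 13 fragments. The 2 groups did not overlap. The mean log2 fold enrichment fell by 1.27 after C59, from 3.75 ± 0.13 in DMSO controls to 2.49 ± 0.26 after C59 (SD, n = 2 each), where the two-sided exact permutation test gave p = 0.333, the smallest value that this design allows. In the whole series, 201 DMSO summits lay in a peak of all 4 lists, with a median difference of -0.31 on the same scale, and 65 of them had a more negative one. The site that stayed listed at Hand2 was thus lower after C59 in both replicates, by more than the median of such sites.

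The summit 116.2 kb upstream, intergenic (peak chr8:57204458-57205032), was listed in 3 libraries. Its fold enrichment was 10.2 and 7.46 in DMSO controls and 5.32 in C59 replicate 2, from 34, 29 and 14 fragments, and C59 replicate 1 did not list it. The C59 value lay below both DMSO values.

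The other strong summits of the distal upstream region were not in any C59 list. The summit 186.8 kb upstream had a fold enrichment of 9.89 and 12.2 in the DMSO replicates. The summit 225.7 kb upstream had 8.74 and 12.4. A weaker summit of the same peak, 226.1 kb upstream, had 6.07 in replicate 2, whereas replicate 1 resolved only 1 summit in this peak. These sites, like those 66.2 and 116.2 kb upstream, lay in a stretch without annotated genes that ends at Hand2os1, a non-coding gene on the strand opposite to Hand2.

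The remaining Hand2 summits had a lower consensus fold enrichment than the 5 strongest, from 3.84 to 10.3. The summit 27.3 kb upstream, in an exon of Hand2os1 and 294 bp from one of its start sites, had a fold enrichment of 6.91 and 6.20 in the DMSO replicates. Downstream, the summit at 56.2 kb had 8.55 and 8.53, values that differed by less than those of any other Hand2 summit. The summits 7.32 kb and 28.4 kb downstream had 3.07 and 4.04, and 4.89 and 4.53, and that 190.5 kb downstream, 429 bp from a start site of Hmgb2, had 3.50 and 4.49. Those at 7.32 and 190.5 kb were below the C59 calling limit in DMSO replicate 1 (−log10 p of 4.27 and 4.599) and above it in DMSO replicate 2 (7.81 and 7.82). At the Hand2 TSS itself, β-catenin was called only in DMSO replicate 2, 0.061 kb upstream of the start, with a fold enrichment of 3.15.

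**Figure D2:**
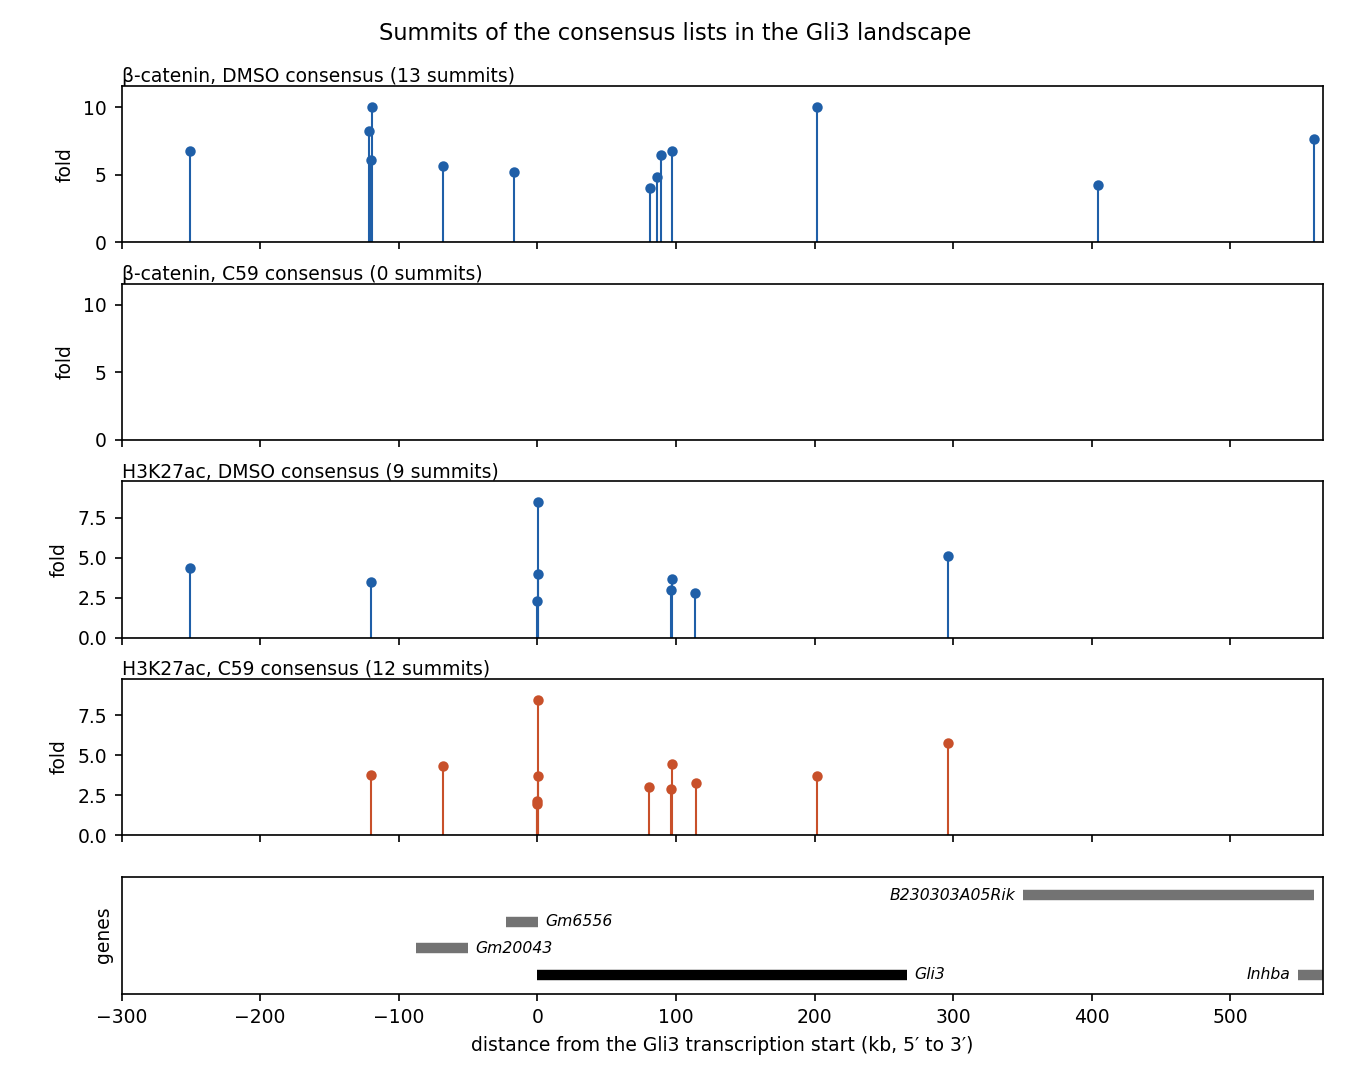
Fold enrichment of each consensus summit (y axes) against its distance from the first Gli3 TSS in kb (x axis), for β-catenin and H3K27ac in DMSO controls (blue) and after C59 (red), with selected genes as bars at the bottom. The 13 β-catenin summits of DMSO controls have no counterpart after C59, and the highest H3K27ac summit is at the Gli3 promoter in both conditions.

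Around Gli3, β-catenin summits were weaker than around Hand2, and some were grouped in clusters. The consensus fold enrichment had a median of 6.45 and reached 10.03, against a median of 10.3 and a maximum of 18.6 around Hand2, and the median of the whole DMSO list was 6.75. Fold enrichments of 10 or more were reached by 6 of 11 Hand2 summits and 2 of 13 Gli3 summits. Of all DMSO summits, 20.3% had at least the fold enrichment of the weaker of these 2 Gli3 summits (10.01). A cluster of 3 intergenic summits lay 119.5, 120.0 and 121.8 kb upstream. Those at 119.5 and 120.0 kb were summits of the same consensus peak, chr13:15343006-15343950. The strongest of these, at 119.5 kb, had a fold enrichment of 8.53 and 10.3 in the DMSO replicates, from 54 and 76 fragments. That at 121.8 kb had 7.04 and 8.72, and that at 120.0 kb 5.28 and 5.60. The 3 summits had higher coverage than most Hand2 summits, but also a higher expected coverage, between 5.25 and 6.47 fragments, so that their fold enrichment was lower.

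The second cluster lay in the Gli3 introns, where 4 summits between 81.3 and 97.3 kb downstream of the TSS had fold enrichments from 3.61 to 6.70 in the DMSO replicates. The strongest of the 4, at 97.3 kb, had 5.81 and 6.70. The fifth intronic summit stood alone at 201.7 kb (peak chr13:15664682-15665143), with 9.60 and 8.46 from 32 fragments in each replicate. None of the 5 was in a C59 list. Of these, the summit at 81.3 kb was below the C59 limit in replicate 1.

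The remaining Gli3 summits were single ones. The intergenic summit 250.6 kb upstream had a fold enrichment of 6.23 and 6.10 in the DMSO replicates. The summit 560.5 kb downstream, in an intron of Inhba, which encodes an activin subunit, and 291 bp from a start site of the pseudogene B230303A05Rik, had 6.23 and 7.11. The summits 67.9 and 16.9 kb upstream, in introns of the non-coding genes Gm20043 and Gm6556, had 4.13 and 5.33, and 4.72 and 5.51. That 404.2 kb downstream, in an intron of B230303A05Rik, had 3.31 and 3.97 and was below the C59 limit in replicate 1. At the Gli3 promoter, β-catenin was called only in DMSO replicate 1, 0.613 kb after the first base, with a fold enrichment of 3.56.

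**Figure D3:**
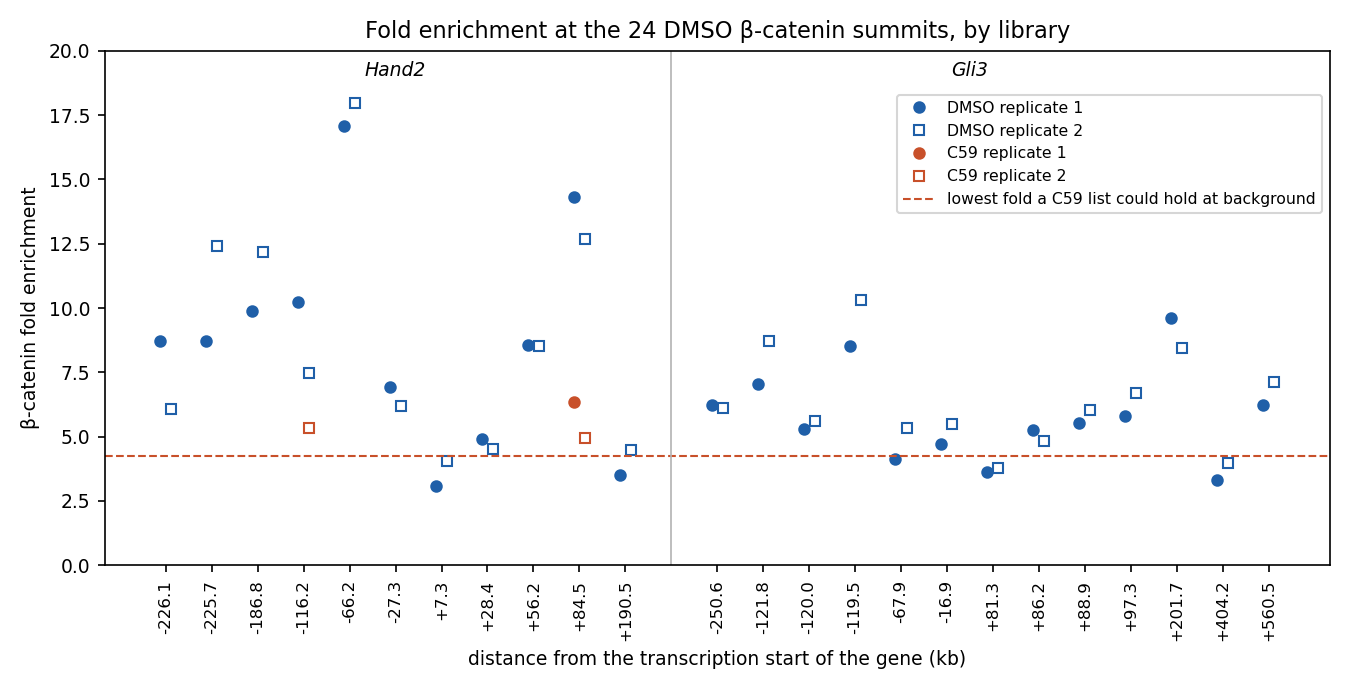
β-Catenin fold enrichment (y axis) at each of the 24 DMSO consensus summits (x axis, distance from the TSS in kb), with 1 point for each replicate library that listed a peak there (blue, DMSO; red, C59). The 3 red points are all at Hand2, 84.5 kb downstream and 116.2 kb upstream, and the dashed line at 4.26 is the lowest fold enrichment that C59 replicate 2 could list at its background.

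The replicates of DMSO controls were close at these sites, which the consensus list had kept because both replicates held a peak there. Part of this closeness was therefore fixed by the choice of summits. The log2 ratio of replicate 2 to replicate 1 had a median of 0.10 over the 24 summits and did not exceed 0.52 in size. Replicate 2 was higher at 15 of 24. The 0.52 belonged to the summit 226.1 kb upstream, where replicate 1 gave only the value of the neighbouring summit. Replicate 2 also listed more summits, and 12 of its 22 Hand2 summits lay in no peak of replicate 1, with fold enrichments from 2.82 to 5.25. In replicate 1, 4 of 13 Hand2 summits were outside the peaks of replicate 2. Around Gli3, 2 of 15 and 3 of 16 summits were found in 1 replicate only.

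The TCF/LEF core was present at 6 of 11 Hand2 summits (54.5%, 95% Wilson interval 28.0 to 78.7%) and at 2 of 13 Gli3 summits (15.4%, 4.33 to 42.2%). It was present at 28.6% (27.9 to 29.3%) of the 16193 DMSO summits on assembled chromosomes, in 8.69% of 32386 windows centred 2 kb to either side of these, and in 8.65% of 32851 RefSeq promoters of 300 bp. The intervals of the landscapes overlap each other, and both hold the share of all summits. Over both landscapes the share was 8 of 24 (33.3%), close to that of all summits. At Hand2, the core was present at 3 of the 5 strongest summits, those 66.2, 186.8 and 225.7 kb upstream. Neither ATCAAAG nor TTCAAAG was present at the sites that a C59 list still held, 84.5 kb downstream and 116.2 kb upstream. The window 84.5 kb downstream holds AACAAAG, which was not among the words searched. At Gli3, 1 of the 5 strongest summits had it, that 121.8 kb upstream.

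**Figure D4:**
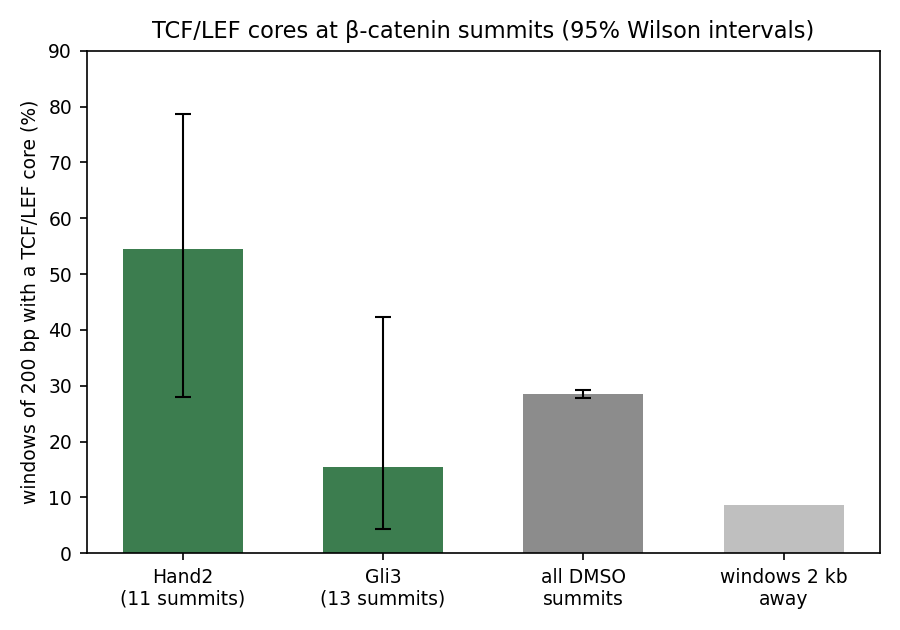
Percent of 200 bp windows with a TCF/LEF core (y axis, bars from 0) at the β-catenin summits of the Hand2 and Gli3 landscapes and of the whole DMSO list, with 95% Wilson intervals, and in windows 2 kb away (no interval drawn). The Hand2 bar is at 54.5%, the Gli3 bar at 15.4% and the bar of all summits at 28.6%.

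The letters bound by the proteins of these genes themselves were also searched, on both strands and in the same windows. The GLI core CCACCCA was present at 2 of 24 summits, both at Hand2, 7.32 and 84.5 kb downstream, against 4.40% of all summits and 4.41% of the windows 2 kb away. The HAND2 E-box CATCTG was present at 3 of 24, all at Gli3, 250.6 and 119.5 kb upstream and 86.2 kb downstream. Over the 24 summits the E-box share was 12.5% (Wilson interval 4.34 to 31.0%). This was below the 27.8% of all summits and the 14.96% of the windows 2 kb away, although the interval holds both. By gene, the E-box was present at 3 of 13 Gli3 summits (23.1%) and at 0 of 11 Hand2 summits. These are counts of letters in few windows, without a test, and none of the matches is shown to be a bound site.

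H3K27ac was present at both promoters and did not differ detectably between treatments. The consensus lists held 16 summits in DMSO controls and 21 after C59 around Hand2, and 9 and 12 around Gli3. The replicate lists held 19 and 21 against 28 and 21 around Hand2, and 12 and 18 against 15 and 15 around Gli3, so that the groups overlapped or touched in both landscapes (two-sided exact permutation tests, p = 0.667 and 1). Of the 25 DMSO summits, 3 did not lie in a C59 consensus peak (10.9% of all 31466 did not), and of the 33 C59 summits, 10 did not lie in a DMSO consensus peak (9.14% of all 30166 did not). The last count was above its background and is taken apart by library further on.

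To compare levels, the 4 replicate lists were merged into 34047 regions, of which 35 had a summit in the landscapes (17 at Hand2, 18 at Gli3). Of these, 13 were called in all 4 libraries (7 and 6), or 37.1% against 51.3% of all regions. The highest fold enrichment in each region was tested with limma over the 17475 regions called in all 4 libraries. None of the 13 passed an adjusted p of 0.05, and neither did any other region (0%), although 1777 had an unadjusted p below 0.05. None of the 13 was among the latter. Over all regions tested, the log2 difference of C59 from DMSO ran from -1.07 to 1.59, so that large differences did not pass either.

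At the Hand2 promoter, the region chr8:57321079-57323020 began 96 bp after the TSS, held a start site of Hand2os1 and was centred in a coding exon of Hand2. Its highest fold enrichment was 4.28 and 4.75 in DMSO controls and 4.65 and 4.49 after C59. The values of the 2 groups overlapped, and the log2 difference of C59 from DMSO was 0.05 ± 0.11 (SE, 95% interval -0.23 to 0.32; limma, adjusted p = 0.91). These low fold enrichments came from high coverage, 137 and 160 fragments in DMSO controls and 175 and 146 after C59, over an expected coverage that macs2, run without input, takes from the library itself. Relative to the genome-wide background of each library, the coverage was 51.0 and 55.5 times higher in DMSO controls and 55.2 and 49.1 times higher after C59.

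At the Gli3 promoter, the region chr13:15462646-15464856 held the start sites of Gli3 and of the non-coding gene Gm6556. Its highest fold enrichment was 8.51 and 8.31 in DMSO controls and 8.02 and 8.78 after C59, from 369, 395, 465 and 408 fragments. Again the groups overlapped, with a log2 difference of 0.02 ± 0.13 (SE, 95% interval -0.29 to 0.34; limma, adjusted p = 0.97). Neither interval reached a change of 1 on the log2 scale in either direction.

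By fold enrichment, the 3 highest acetylated regions of the Hand2 landscape lay at neighbouring genes. The first was at Hmgb2, which encodes a chromatin protein, with a fold enrichment of 14.6 and 15.2 in DMSO controls and 16.2 and 14.8 after C59. That in Sap30, a gene for a subunit of a histone deacetylase complex, had 8.63 and 8.93 against 9.47 and 10.2 (log2 difference 0.19 ± 0.12 SE, limma adjusted p = 0.63). The region 20.2 kb downstream of the Hand2 TSS, in the lincRNA gene 5033428I22Rik, had 6.19 and 7.31 against 7.37 and 7.43 (log2 difference 0.16 ± 0.12 SE, limma adjusted p = 0.68). The order depended on the measure. Relative to the library background, coverage at 20.2 kb was 12.3 and 14.6 times higher in DMSO controls and 13.2 and 12.8 times after C59. These values were below those of the Hand2 promoter region. In the Gli3 landscape, the region with the highest fold enrichment outside the promoter was intergenic, 296.1 kb downstream of the TSS. It had 4.07 and 5.41 against 5.75 and 5.79 (log2 difference 0.33 ± 0.15 SE, limma adjusted p = 0.54). Its coverage over the library background was 5.21 and 6.93 in DMSO controls and 7.25 and 7.39 after C59. An intronic region 97.0 kb downstream had more, 8.55 and 8.67 in DMSO controls and 8.51 and 12.4 after C59. The region 67.9 kb upstream, in Gm20043, had 2.98 and 4.34 against 3.79 and 5.03. The differences at these sites were not separable from the spread between replicates by the adjusted test.

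**Figure D5:**
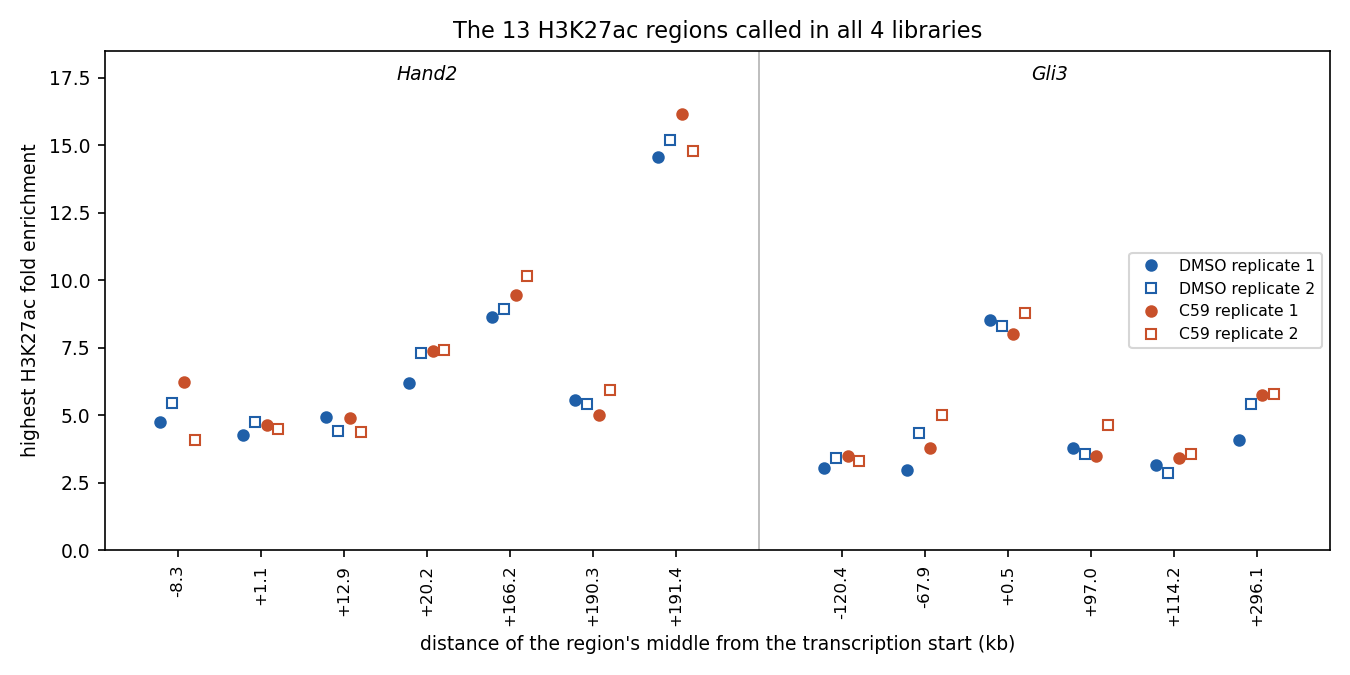
Highest H3K27ac fold enrichment (y axis) in each of the 13 regions of both landscapes called in all 4 libraries (x axis, distance of the middle of the region from the TSS in kb), with 1 point for each library (blue, DMSO; red, C59). At the promoters of Hand2 (1.07 kb) and Gli3 (0.52 kb) red and blue points overlap, and the libraries spread more 67.9 kb upstream (2.98 to 5.03) and 296.1 kb downstream of Gli3 (4.07 to 5.79).

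The log2 difference of C59 from DMSO was above 0 at all 13 regions, with a median of 0.11 against 0.03 over all regions tested, of which 56.4% were above 0, but at only 9 of 13 without centring and at 8 of 13 with the mean over summits in place of the highest. The common direction thus depended on the scaling and on how a region was summarised.

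The regions that had a consensus summit in 1 treatment only were mostly called in the other as well. There were 7 such regions after C59, 4 at Hand2 and 3 at Gli3, and 6 of them were also called in at least 1 DMSO library. DMSO replicate 1, with the lowest background coverage of the 4 H3K27ac libraries (2.69), did not list 5 of the 7. Its part in the difference was not tested. Of the 35 regions, 1 was called in both C59 libraries and neither DMSO library (2.15% of all regions were), and 1 in both DMSO libraries and neither C59 library (3.03% of all regions were). The first lay in a Gli3 intron, 201.5 kb downstream of the TSS (chr13:15664586-15664943), with fold enrichments of 3.34 and 4.26 after C59. The β-catenin summit at 201.7 kb, with a fold enrichment of 9.60 and 8.46 in DMSO controls, lay 1 bp outside its border, and inside the corresponding peak of the C59 consensus list (fold enrichment 3.68). The second was intergenic, 250.3 kb upstream of Gli3 (chr13:15212718-15213215), with 4.68 and 3.26 in DMSO controls.

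At the Hand2 site 84.5 kb downstream, the β-catenin summit lay between a pair of acetylated regions, chr8:57404830-57405237 and chr8:57405667-57406015, 178 bp from the nearer border. The first had fold enrichments of 3.60 in DMSO replicate 2, 3.91 in C59 replicate 1 and 3.87 in C59 replicate 2, and the second had 2.83, 2.78 and 4.08. Neither was called in DMSO replicate 1, and the DMSO consensus list had no summit there. In the C59 consensus list, made from both replicates together, a peak with a fold enrichment of 4.53 covered the β-catenin summit itself.

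The β-catenin summits of these landscapes were set against the H3K27ac peaks. Of the 24, 2 lay inside a DMSO consensus H3K27ac peak (8.33%, 95% Wilson interval 2.32 to 25.8%), 1 at Hand2 and 1 at Gli3. Over all DMSO β-catenin summits the share was 22.2%, which this interval holds. The Gli3 summit 67.9 kb upstream was not counted, although each DMSO replicate had an H3K27ac peak there (fold enrichment 2.98 and 4.34). Inside a peak of any of the 4 H3K27ac libraries there were 4 (16.7%, against 26.9% of all summits). Inside a C59 consensus H3K27ac peak there were 5 (20.8%, 9.24 to 40.5%, against 23.0%). More of the Gli3 summits lay beside such peaks. Taking the peaks of any of the 4 H3K27ac libraries, 10 of 13 Gli3 summits were less than 1 kb away or inside (76.9%, 49.7 to 91.8%), against 3 of 11 Hand2 summits (27.3%, 9.75 to 56.6%) and 48.1% of all summits. Of these 10, 3 were inside and 7 beside a peak, and the clusters 120 kb upstream and in the Gli3 introns share regions, so that the 10 are not independent. The 3 Hand2 summits were those 28.4, 84.5 and 190.5 kb downstream. The strongest Hand2 summit was 57453 bp from the nearest H3K27ac peak of any library. The 2 intervals overlap narrowly, and the difference between the genes was not tested.

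Other genes of the pathway were examined in the same way. Of 29 genes of the antero-posterior and hedgehog systems, 28 had at least 1 DMSO β-catenin consensus summit within 300 kb, the exception being Shh. The count covers this window only. For Shh, the paper reports a β-catenin peak at the ZRS, its limb bud enhancer, which was lost after C59. The median over the 29 genes was 14 summits and the range 0 to 29. Over all 21938 protein-coding genes the median was 3, and 82.7% had a summit. Ptch1, the SHH receptor and itself a target of the pathway, had 18 summits, and Gli1, an activator induced by SHH, had 6. Hoxd13, a HOX gene of the posterior and distal limb bud, had 29, and the other Hoxd genes shared most of these. Tbx3 and Grem1, which encode a T-box repressor and a BMP antagonist, had 16 each, and Alx4, an anterior homeobox gene, had 15. With 11 and 13 summits, Hand2 and Gli3 were below 16 of the 29 genes. At the start sites, where Hand2 and Gli3 had none, 10 of the 29 genes had a DMSO β-catenin consensus summit less than 1 kb away, Ptch1 and Gli1 included, against 9.06% of all protein-coding genes. After C59, 0 of the 29 genes had a consensus summit in the window, where 2.2% of all protein-coding genes did, and neither did Gli3, whereas Hand2 had 1. H3K27ac was present at the start sites of 25 of the 29 in DMSO controls (52.2% of all protein-coding genes) and of 24 after C59 (51.2%). The gene that made the difference, Grem1, was listed there in both DMSO replicates and in C59 replicate 2.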

How the data were processed

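β-Catenin and H3K27ac ChIP-seq peak lists were used from 2 replicates per antibody and treatment (8 lists) and from 4 consensus lists. The 4 input samples have no list and were not used. The submitters' processing notes name cutadapt 4.1, Bowtie2 2.4.5, MACS2 2.2.7.1 and Picard 2.27.4 on mm10. The methods state that peaks were called without input, and that consensus lists come from replicates without duplicates, sampled to equal size, called together and kept where the summit lay in a peak of both. Each deposited row gives the fold enrichment (a ratio over expected coverage) and the −log10 of the p-value and q-value as the authors' peak caller wrote them. No read counts were used. Consensus values are the authors' pooled values, without an error of their own.

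Observed and expected coverage were computed by inverting the Poisson p and the fold enrichment, and 0 peaks reached past a chromosome end of GRCm38. Genes and TSSs were from GENCODE M21 and promoters from RefSeq (GRCm38.p6). Summits were matched to the peaks that contained them in the other condition. H3K27ac regions were compared with limma 3.58.1 (R 4.3.3) on log2 of the highest fold enrichment, centred on the library median, with Benjamini-Hochberg adjustment over all regions. Counts of summits were compared by exact permutation tests. Intervals are Wilson intervals at 95%. The functions were tested on simulated data. Same-numbered replicates shared only their number (correlation of their deviations 0.01 over 17475 regions). Alternatives were other windows, a stricter q-value, peak regions in place of summits, each replicate alone, other overlap definitions, other core windows and words, and other region values. Coverage over background and H3K27ac peaks of any library were chosen after seeing the data. The genes, sites named and gene lists were chosen with earlier results of these data known. Sites named were the 5 strongest β-catenin summits per gene, those with a TCF/LEF core or a C59 peak, H3K27ac regions at the TSSs, the 3 strongest others and those specific to a treatment. The other summits and regions described were named after their values were seen. Python 3.11.15, scipy 1.17.1 and pysam 0.24.0 were used.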

Additional observations from a re-analysis of the deposited data

How the results depend on the processing

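The number of DMSO β-catenin summits around Hand2, 11 in the consensus list, was 6 with a window of 100 kb and 22 with one of 500 kb, and ranged from 13 to 22 in the replicate lists. Around Gli3, 13 became 7 with a window of 100 kb. The C59 counts at Hand2 ranged from 1 to 2 in the replicate lists, and those at Gli3 stayed at 0 in each alternative run. When H3K27ac summits of the same peak region were counted once, Hand2 had 7 in DMSO controls and 10 after C59. The H3K27ac count at Gli3 in DMSO controls ranged from 12 to 18 in the replicate lists. The share of β-catenin summits inside an H3K27ac peak, 8.33%, became 54.2% when peaks of any of the 4 libraries were extended by 1 kb, which widens the regions by construction. The number of landscape regions with an adjusted p below 0.05 was 0 in each alternative, including the fit with the replicate block, which also gave 0, and coverage over background. Of the 7 H3K27ac regions named with a fit, 5 kept their sign in each alternative, and the exceptions were the promoters of Hand2 and Gli3, whose log2 differences near 0 became -0.18 and -0.28 with the mean over summits, without passing the test. Among the 7, the lowest adjusted p was 0.31. With 2 replicates and lists cut at a p-value, a site below the limit gives no value, and small differences in acetylation were not detectable. Larger ones could also be missed, since no region of the whole series passed over log2 differences from -1.07 to 1.59.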

Other observations

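Both genes lay in windows rich in β-catenin. In the DMSO consensus list, 5.78% of all protein-coding genes had as many summits as Hand2 (11) or more, and 3.42% had as many as Gli3 (13) or more. Per Mb of window, Hand2 had 18.2 summits and Gli3 14.998, against a median of 4.84 over all protein-coding genes, and 3.61% and 6.30% of genes reached these densities. H3K27ac did not stand out in the same way, since 42.0% of genes had at least the 16 DMSO consensus summits of Hand2 and 64.9% at least the 9 of Gli3. Windows of neighbouring genes share summits, so these shares describe the position of both genes and are not a test.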
